A study of Mus musculus with 48 samples.

Results

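The interleukin-1 family and the inflammasome, the cytosolic machine that activates it, were followed through 10 genes in sorted brain microglia and whole spinal cord of young, old and microglia-repopulated old mice. The genes were Il1a, Il1b, Il1rn, Il18, Nlrp3, Aim2, Pycard, Casp1, Casp4 and Gsdmd, 10 of the 35870 genes in the deposited count table, each taken by its symbol. All mice were C57BL/6 with a wild type genotype. Young mice (3 months) and old mice (23 months) had received vehicle. The repopulated group was also 23 months old and was given a drug against Csf1r, a growth factor receptor on which microglial survival depends, for 5 days, followed by 7 days of recovery. Each of the 3 groups had 8 libraries of polyadenylated RNA from microglia and 8 from cord, 48 in all. All repopulated mice were old, and no young group with inhibitor was analysed here. Nothing in the labels ties each library to an animal of its own, so the p-values rest on library spread, which may be technical.

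Microglia were sorted from dissociated brain as Cd11b+ and Cd45+ cells, a gate that other myeloid cells also carry. The summed level of 10 microglial markers (among them P2ry12, Tmem119, Cx3cr1 and Sall1) had a median of 62468 CPM in young, 44390 CPM in old and 46478 CPM in repopulated sorted libraries, against 281 to 463 CPM in the cord groups, and none of the 10 was at 0 throughout a group. CPM are depth-normalised counts, computed here from library totals multiplied by TMM factors. Total counts ran from 18741936 to 34496308 in microglia and from 15909868 to 33004806 in cord. On principal components, old microglia replicates 2 and 7, repopulated microglia replicate 5 and repopulated cord replicate 6 were picked out as lying at the edge of their groups. Values without them are given where they change a result. They were not the only such libraries. On the first microglia component repopulated replicates 2 and 7 (52.8 and 53.5) were near replicate 5 (70.4), and replicate 4 lay at -10.2. On the second, old replicate 4 (-35.8) was near old replicate 2 (-45.3). On the first cord component old replicate 1, young replicate 5 and repopulated replicate 3 also lay far from most of their groups, at 42.2, 32.7 and 49.4.

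Interleukin-1 alpha and interleukin-1 beta, encoded by Il1a and Il1b, bind the same receptor and start fever, leukocyte recruitment and glial activation. The product of Il1rn occupies that receptor without signalling and so acts as the natural antagonist. Interleukin-1 beta and interleukin-18 are made as inactive precursors. A sensor such as Nlrp3 (ion flux, crystals, aggregates) or Aim2 (cytosolic DNA) joins the adaptor Asc, encoded by Pycard, and recruits caspase-1, which cleaves both precursors. Caspase-1 and the caspase encoded by Casp4, which senses bacterial lipopolysaccharide inside the cell, also cut gasdermin D, the product of Gsdmd, whose freed end forms the membrane pore of pyroptosis. In the brain, microglia are the best-known source of these transcripts. RNA levels say nothing of cleavage or release.

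Several of the genes are neighbours. Il1a (chromosome 2, 129299610 to 129309972, minus strand) and Il1b (chromosome 2, 129364570 to 129371139, minus strand) lie 54597 bases apart on GRCm38, and Il1rn is on the same chromosome at 24336853 to 24351494. Casp1 (chromosome 9, 5298517 to 5307265) and Casp4 (chromosome 9, 5308828 to 5336783) are 1562 bases apart on the plus strand. Il18 is also on chromosome 9 (50554827 to 50581840), Nlrp3 is on chromosome 11 (59541568 to 59566956), Aim2 on chromosome 1 (173350879 to 173466040), Pycard on chromosome 7 (127989708 to 127993867) and Gsdmd on chromosome 15 (75862327 to 75867408). The 150 bases before the RefSeq start sites of Il1a, Il1b and Casp4 are shown because the first 2 are neighbours of which Il1b alone was called between old and young microglia, and because Casp4 was called higher with age in both tissues. RefSeq windows on GRCm38.p6 were found for 9 of the 10 genes, in 13 windows of 300 bases, and 4 motifs were searched on both strands. They were the TATA box (TATAAA, in 13.6% of all 32851 windows), AP-1 (TGANTCA, 7.81%), the NF-kB consensus (8.46%) and the interferon-stimulated response element (3.44%). Capitals mark the matches, and all 3 sequences read toward the gene.
Il1a, chr2:129309973-129310122, minus strand: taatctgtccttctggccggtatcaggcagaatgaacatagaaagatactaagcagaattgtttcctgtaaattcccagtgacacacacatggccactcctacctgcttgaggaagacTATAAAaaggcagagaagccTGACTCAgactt
Il1b, chr2:129371140-129371289, minus strand: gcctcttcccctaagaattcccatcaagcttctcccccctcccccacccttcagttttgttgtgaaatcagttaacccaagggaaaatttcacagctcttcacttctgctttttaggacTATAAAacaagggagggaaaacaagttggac
Casp4, chr9:5308699-5308848, plus strand: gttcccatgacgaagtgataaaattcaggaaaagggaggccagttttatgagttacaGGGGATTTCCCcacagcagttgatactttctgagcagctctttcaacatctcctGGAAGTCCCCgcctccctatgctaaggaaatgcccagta
The Il1a and Il1b windows each held TATAAA, at -32 to -27 and at -31 to -26 from the start. Il1a also held the AP-1 letters TGACTCA at -12 to -6. Casp4 held 3 NF-kB matches, of which a pair overlaps (GGGGATTTCC at -93 to -84 and GGGATTTCCC at -92 to -83) and the other, GGAAGTCCCC, lies at -39 to -30. In the other windows, Il1rn held TGAGTCA at -141 to -135, Nlrp3 held GGGAACCCCC at -186 to -177, and Il18 held the TATA letters on the other strand (TTTATA) at -175 to -170, as did another Il1rn window at 14 to 19. These are matches of letters and not measured binding. The libraries keep no strand, and exons on the opposite strand overlap Il1a by 222 bases (Gm14023), Il1b by 25 (Il1bos) and Pycard by 485 (Gm45205), so reads of these pairs cannot be told apart.

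Between genes, levels were compared in deposited TPM values, which are scaled by gene length. In young microglia the adaptor and the pore former led: Pycard stood at 132 ± 10.1 TPM (SD, n = 8), Gsdmd at 90.7 ± 8.62 and Nlrp3 at 67.8 ± 8.19. Casp1 followed at 53.0 ± 7.15, Il18 at 29.5 ± 3.79, Il1a at 28.1 ± 3.23, Casp4 at 21.3 ± 3.18 and Aim2 at 10.8 ± 1.99. The last places went to Il1b, at 7.31 ± 1.13 TPM, and to its antagonist Il1rn, at 1.79 ± 0.547 TPM. The sensor, adaptor, caspase and pore of the inflammasome were thus all transcribed in young microglia at levels above that of Il1b. The ranges over libraries overlapped for the neighbours Nlrp3 and Casp1, Il18 and Il1a, Il1a and Casp4, and Aim2 and Il1b, and stayed apart for the other neighbours in this order.

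In young cord the order was different. Il18 was far ahead at 26.7 ± 4.40 TPM, a level close to that in sorted microglia, with a ratio of microglia to cord of 1.10. Casp1 and Gsdmd stood at 6.89 ± 1.93 and 6.88 ± 1.70 TPM, Casp4 at 4.04 ± 0.912, Pycard at 2.39 ± 0.440, Aim2 at 2.09 ± 0.384 and Nlrp3 at 0.754 ± 0.262. Il1a, Il1rn and Il1b closed the list at 0.321 ± 0.154, 0.313 ± 0.169 and 0.293 ± 0.112 TPM, and their ranges overlapped. The ratio of microglia to cord was 90.0 for Nlrp3, 87.7 for Il1a, 55.3 for Pycard and 25.0 for Il1b. It was 13.2 for Gsdmd, 7.69 for Casp1, 5.72 for Il1rn, 5.28 for Casp4 and 5.19 for Aim2. Nlrp3, Il1a and Pycard were thus the genes most concentrated in the sorted cells, and Il18 the least.

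Old microglia had more Il1b, more of its antagonist Il1rn and more Casp4 than young microglia, and less Nlrp3. These 4 genes were called by edgeR's quasi-likelihood test at a Benjamini-Hochberg adjusted p under 0.05, 3 higher and 1 lower, and the other 6 were not called. Over all 14382 genes tested in microglia 21.7% were called, 11.0% higher and 10.7% lower. The median log2 fold change of the 10 genes was 0.01, beside -0.01 for all genes tested.

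Il1b stood at 6.39 to 9.18 CPM in the 8 young libraries (median 7.69) and at 14.4 to 76.0 CPM in the 8 old ones (median 37.5). Every old library lay above every young one, which held for 4.12% of all genes, and the old libraries were spread over a far wider range than the young. Its mean went from 7.84 ± 0.969 to 40.7 ± 23.0 CPM, a log2 fold change of 2.38 (SE 0.25, adjusted p = 8.37e-09). Il1rn stood at 1.04 to 3.05 CPM in young (median 1.94) and at 14.2 to 37.0 CPM in old libraries (median 25.9). The groups were again apart, and the rise was the largest among the 10 genes, 12.8-fold (log2 3.67, SE 0.23, adjusted p = 1.14e-13). The agonist Il1a did not follow its chromosomal neighbour: it stood at 42.9 to 54.4 CPM in young and 37.6 to 54.3 CPM in old libraries (log2 -0.01, SE 0.13, adjusted p = 0.97). Il18 went from 19.4 ± 1.59 to 15.5 ± 2.499 CPM (log2 -0.33, SE 0.12, adjusted p = 0.0546), just outside the threshold, and was called lower in limma-voom, on log2(TPM + 1) and in a fit of these groups alone.

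**Figure D1:**
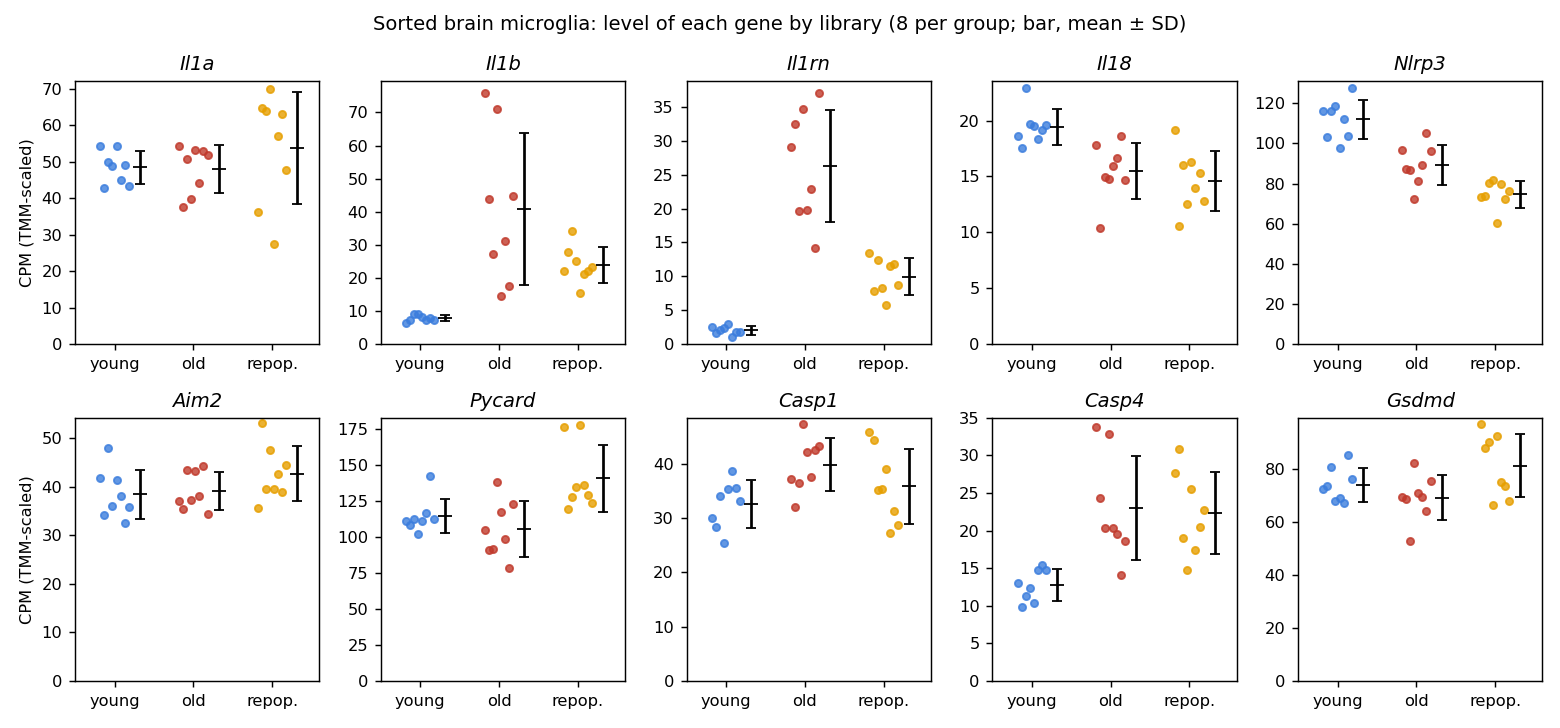
Level of each gene in each sorted microglia library (y axis, CPM scaled by TMM factors, starting at 0; x axis, young, old and repopulated, 8 points each; bars, mean ± SD). All 8 old libraries lie above the young ones for Il1b and Il1rn, and all 8 repopulated libraries lie below the old ones for Il1rn.

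The balance of agonist and antagonist transcripts shifted with these changes. In young microglia Il1a was at 11.8 to 28.8 times the TPM of Il1rn (median 15.96), and in old microglia at 0.760 to 2.47 times (median 1.26). The Il1a to Il1rn ratio thus did not overlap between the groups. Il1b was at 2.67 to 7.41 times the TPM of Il1rn in young (median 4.52) and at 0.778 to 2.79 times in old libraries (median 1.44), so that these ranges met at their ends. Il1a also lost its lead over Il1b: the ratio of Il1a to Il1b went from a median of 3.76 (3.34 to 5.31) to one of 0.804 (0.349 to 2.29). In repopulated microglia the medians were 3.48 for Il1a to Il1rn, 2.86 for Il1b to Il1rn and 1.36 for Il1a to Il1b. No test was run on these ratios.

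Neutrophil markers rose with age and fell after repopulation in the sorted libraries, as Il1b and Il1rn did. The 12 neutrophil markers (S100a8, S100a9, Ngp, Camp, Ltf, Ly6g, Mpo, Elane, Retnlg, Cxcr2, Lcn2, Mmp8) summed to 233 to 1077 CPM in young (median 531), 2185 to 9415 CPM in old (median 4910) and 872 to 3917 CPM in repopulated libraries (median 1416). Of the 12, 11 were called higher in old than in young microglia and 10 lower in repopulated than in old, and none was at 0 in all libraries of a group. The 4 old libraries with the highest neutrophil sums, replicates 8 (9415 CPM), 4 (6315), 2 (5983) and 1 (5269), were also the 4 with the highest Il1b, at 44.7, 71.0, 44.0 and 76.0 CPM. They had the highest Il1rn as well, at 37.0, 34.7, 32.5 and 29.0 CPM.

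After each group's mean was removed, the correlation with the neutrophil sum over the 24 microglia libraries was 0.56 for Il1b and 0.54 for Il1rn, and 0.08 for Il1a, as a description of libraries that share the sort. For monocyte markers it was 0.34 with Il1b and 0.41 with Il1rn, and for border macrophage markers -0.24 and -0.15. B cell and neuron markers had 0.41 and 0.40 with Il1b, above the value of monocyte markers. Per 1000 CPM of summed neutrophil markers, Il1b had medians of 16.9 in young, 7.70 in old and 17.1 in repopulated libraries, and Il1rn had medians of 3.78, 5.50 and 5.96. All of these ranges overlapped between groups. Monocyte markers summed to a median of 200 CPM in young, 833 CPM in old and 415.9 CPM in repopulated libraries, and border macrophage markers to 256, 549 and 121 CPM. Dendritic cell markers (Flt3, Zbtb46, Xcr1, Clec9a, Cd209a, Itgax) summed to 45.5, 320 and 228 CPM. Such a sum can rest mostly on 1 of its genes, so it is no measure of cell number. Immediate early genes, which enzymatic dissociation can induce, summed to medians of 1598, 2092 and 2247 CPM, and their correlation within groups was 0.56 with Il1b and 0.65 with Il1a. The part of these cells and of dissociation in the Il1b and Il1rn results was not tested.

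**Figure D2:**
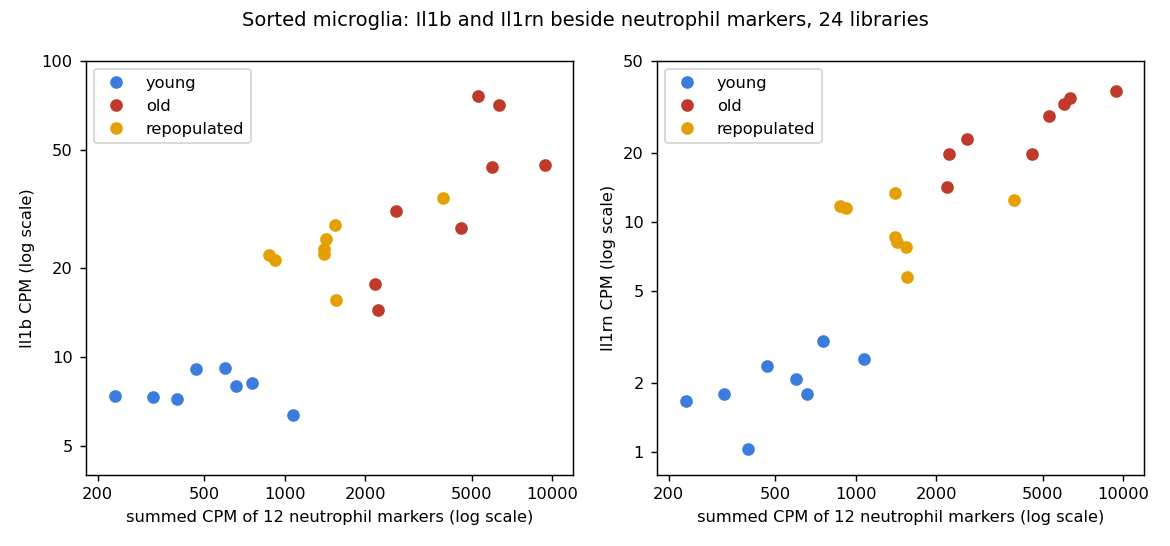
Level of Il1b (left) and Il1rn (right) in each of the 24 sorted microglia libraries (y axes, CPM, log scale) against the summed CPM of 12 neutrophil markers in the same library (x axes, log scale). Young libraries sit at 233 to 1077 CPM of markers, old ones at 2185 to 9415 and repopulated ones at 872 to 3917.

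Among the sensors and the adaptor, Nlrp3 alone of the 3 was called with age in microglia. It stood at 97.8 to 128 CPM in young libraries (median 114) and at 72.6 to 105 CPM in old ones (median 88.3), a fall that left the ranges overlapping (log2 -0.32, SE 0.08, adjusted p = 0.00169). Aim2 stood at 38.5 ± 5.06 and 39.2 ± 3.94 CPM, and Pycard 115 ± 12.1 and 106 ± 19.6 CPM. Microglial markers fell in the same libraries, all 10 of them (median log2 -0.55), and per 1000 CPM of their sum Nlrp3 had a median of 1.90 in young and 2.01 in old libraries. Casp4 rose from 9.85 to 15.4 CPM in young libraries (median 12.7) to 14.1 to 33.8 CPM in old ones (median 20.3), with a log2 fold change of 0.85 (SE 0.17, adjusted p = 0.000223). Old replicates 1 and 4 were far above the rest of the old group at 33.8 and 32.8 CPM. Its neighbour Casp1 had 32.6 ± 4.37 CPM in young and 39.8 ± 4.90 CPM in old libraries (log2 0.29, SE 0.11, adjusted p = 0.0565), and Gsdmd 74.1 ± 6.37 and 69.1 ± 8.53 CPM. Per 1000 CPM of microglial markers all old libraries lay above all young ones for Casp1 and Casp4. Medians in young and old were 0.523 and 0.893 for Casp1, and 0.207 and 0.485 for Casp4. The marker sum itself fell, from a median of 62468 to one of 44390 CPM, and in plain CPM the groups overlapped for both genes. On the marker scale the share of all genes with groups apart was not computed. Casp1 was called higher under 6 other settings, among them DESeq2 and limma-voom, and without young replicate 6, old replicate 2 or repopulated replicate 1, 2 or 6. The edgeR fit without old replicates 2 and 7 together, a choice made after the data had been seen, called it too (log2 0.33, adjusted p = 0.0452).

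After repopulation, microglia had less Il1b, less Il1rn and less Nlrp3 than old microglia, and more Pycard. The other 6 genes were not called between repopulated and old microglia. Over all genes 16.2% were called, 9.05% higher and 7.20% lower. The comparison shares its old libraries with the comparison of old and young.

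Il1rn fell from 14.2 to 37.0 CPM in old to 5.77 to 13.4 CPM in repopulated libraries (median 10.1). No repopulated library reached the lowest old one, as for 0.966% of all genes, and the log2 fold change was -1.39 (SE 0.21, adjusted p = 9.9e-06). Il1b stood at 15.6 to 34.3 CPM in repopulated libraries (median 22.7), inside the wide old range (log2 -0.76, SE 0.23, adjusted p = 0.0222). This call rested on the old libraries with the most Il1b: without old replicate 1 it had log2 -0.56 and adjusted p = 0.0818, and without old replicate 4 log2 -0.59 and adjusted p = 0.0717. It was also lost in limma-voom (log2 -0.51, adjusted p = 0.0972) and in a fit of these 2 groups alone (adjusted p = 0.0598). The repopulated library with the most Il1b, replicate 3, was also the one with the highest neutrophil sum, 3917 CPM, and the highest immediate early sum, 3567 CPM.

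Nlrp3 reached 60.6 to 81.6 CPM in repopulated microglia (median 75.0), below the old mean of 89.4 CPM (log2 -0.26, SE 0.08, adjusted p = 0.0171). Without old replicates 2 and 7, a choice made after the data had been seen, its adjusted p was 0.0639, and in limma-voom it was 0.0618 (log2 -0.22). Pycard rose from 78.8 to 138 CPM in old (median 102) to 120 to 178 CPM in repopulated libraries (median 132), with repopulated replicates 1 and 5 well above the other 6 (log2 0.41, SE 0.10, adjusted p = 0.00416). Under total-count scaling, which moves the median of all genes in this comparison from -0.04 to -0.21, Pycard had log2 0.25 and adjusted p = 0.0528. Il1a had 53.8 ± 15.2 CPM in repopulated libraries, with replicates 5 and 1 the lowest at 27.4 and 36.3 CPM and the others at 47.8 to 70.0 CPM. Casp4 stood at 22.3 ± 5.43 CPM beside 23.0 ± 6.95 CPM in old microglia (log2 -0.04, SE 0.16, adjusted p = 0.896).

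Set beside young microglia, the repopulated cells had 4 of the 10 genes higher and 2 lower. Over all genes 32.7% were called, 16.1% higher and 16.5% lower, so the count of 6 is to be read against a high background. Il1b was 3.06-fold higher (log2 1.61, SE 0.24, adjusted p = 3.03e-06) and Il1rn 4.86-fold higher (log2 2.28, SE 0.22, adjusted p = 6.65e-10). For both genes all repopulated libraries lay above all young ones, as for 7.20% of genes. Casp4 was 1.75-fold higher (log2 0.81, SE 0.17, adjusted p = 0.000244). Nlrp3 was lower by 0.58 on the log2 scale and its repopulated libraries all lay below the young ones, as for 5.86% of genes (log2 -0.58, SE 0.08, adjusted p = 2.73e-07). Of the 10 microglial markers 8 were lower too (median log2 -0.67), and per 1000 CPM of their sum Nlrp3 overlapped between the groups, at medians of 1.67 and 1.90. Il18 was lower too, at 14.6 ± 2.69 CPM (log2 -0.41, SE 0.12, adjusted p = 0.0091). On the marker scale its groups overlapped as well, at medians of 0.315 in repopulated and 0.303 in young libraries. Pycard was higher by log2 0.29 (SE 0.10, adjusted p = 0.0244), but not called under total-count scaling (log2 0.16) and of the other sign on log2(TPM + 1) (-0.04), and without repopulated replicate 1 or 5 its adjusted p was 0.0705 or 0.0718.

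In whole spinal cord 7 of the 10 genes were called higher in old than in young libraries and 0 lower, where 6.15% of all 18271 genes tested were called, 4.88% higher and 1.26% lower. They were Il1a, Il1rn, Aim2, Pycard, Casp1, Casp4 and Gsdmd, that is, the adaptor, both caspases and the pore former together with the agonist Il1a, the antagonist and the DNA sensor. The median log2 fold change of the 10 genes was 0.80, beside -0.01 for all genes. The number of all genes called moved with 1 library, from 892 higher and 231 lower to 1428 and 681 without repopulated cord replicate 6, where the same 7 of the 10 were called and Il1b was added.

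Pycard stood at 1.22 to 2.32 CPM in young (median 1.85) and 3.68 to 4.81 CPM in old cord (median 3.85), with no overlap (log2 1.19, SE 0.17, adjusted p = 2.44e-05). Casp4 stood at 1.32 to 2.81 CPM in young and 3.46 to 5.81 CPM in old cord, also apart (log2 1.22, SE 0.16, adjusted p = 6.58e-06). Aim2 was the third gene without overlap, at 4.75 to 7.98 and 8.15 to 11.9 CPM (log2 0.65, SE 0.11, adjusted p = 0.000173). Old libraries all above young ones were found for 2.45% of genes in cord. Casp1 went from 3.66 ± 1.04 to 5.53 ± 0.362 CPM (log2 0.59, SE 0.15, adjusted p = 0.0109) and Gsdmd from 4.86 ± 1.20 to 7.43 ± 1.06 CPM (log2 0.61, SE 0.13, adjusted p = 0.00335). For both genes the ranges of young and old overlapped.

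The interleukin-1 genes were near the limit of detection in cord. Il1rn had 3 to 14 reads per young library and 16 to 50 per old one, or 0.309 ± 0.166 and 1.07 ± 0.299 CPM (log2 1.81, SE 0.27, adjusted p = 4.11e-05). Il1a had 5 to 24 reads in young and 18 to 39 in old libraries, or 0.482 ± 0.241 and 1.15 ± 0.258 CPM (log2 1.25, SE 0.24, adjusted p = 0.00102). Il1b had 3 to 11 and 7 to 26 reads, or 0.272 ± 0.104 and 0.526 ± 0.159 CPM (log2 0.95, SE 0.31, adjusted p = 0.0687). At this depth the call of Il1b in cord depended on the fit: its adjusted p was 0.0429 without repopulated cord replicate 6 and 0.0144 without repopulated cord replicate 2, in neither case with a change in the old or young libraries, and 0.0483 without old cord replicate 5. DESeq2 and limma-voom called it too. Nlrp3 had 1.08 ± 0.371 and 1.42 ± 0.371 CPM (adjusted p = 0.444), and Il18 15.3 ± 2.65 and 16.8 ± 2.01 CPM (adjusted p = 0.788).

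**Figure D3:**
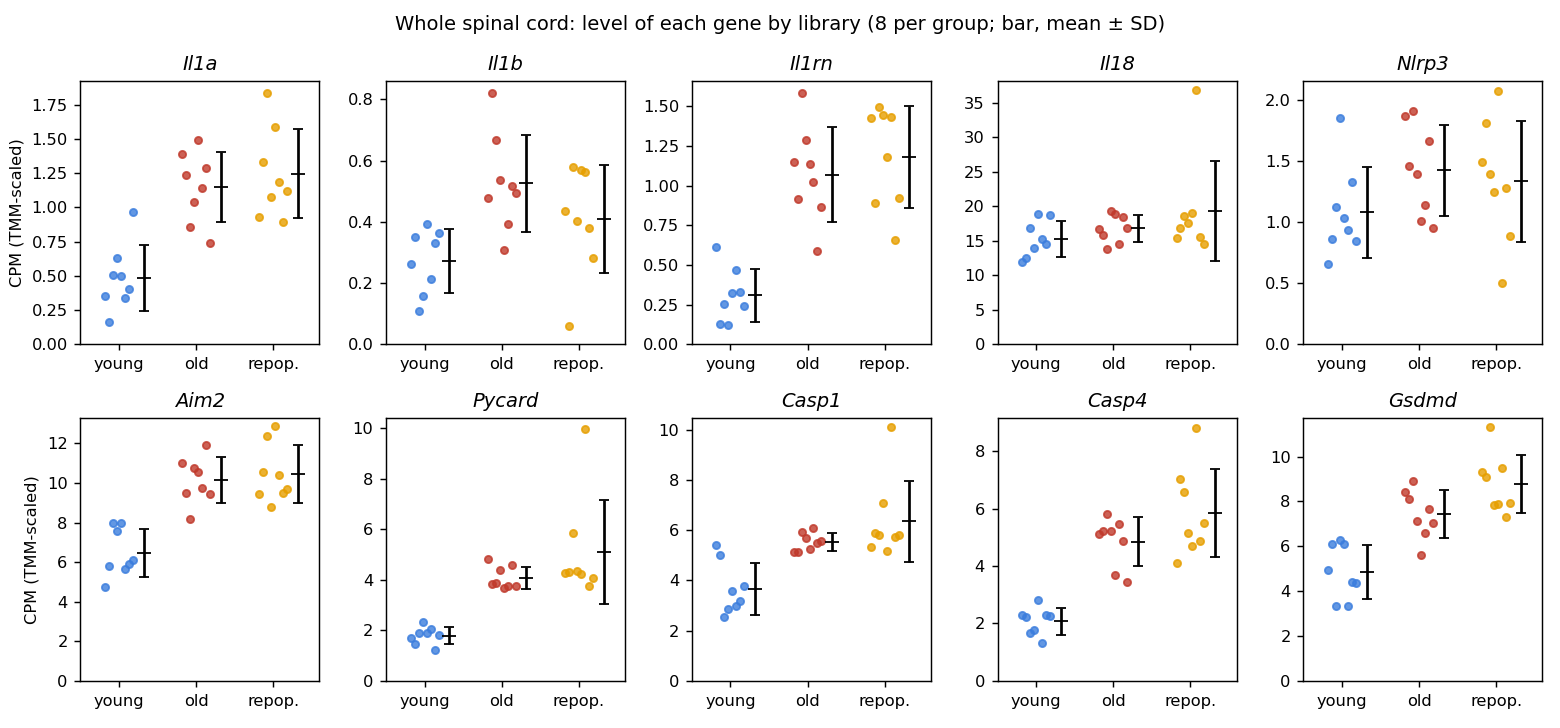
Level of each gene in each whole spinal cord library (y axis, CPM scaled by TMM factors, starting at 0; x axis, young, old and repopulated, 8 points each; bars, mean ± SD). Pycard, Casp4 and Aim2 have all 8 old libraries above the young ones, and the high repopulated point of Il18, Pycard and Casp1 is replicate 6.

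Between repopulated and old cord 0 of the 10 genes were called by edgeR, with 0 of 10 at an unadjusted p under 0.05, and 0.148% of all genes were. None of the 10 had groups that stayed apart, and 0.0493% of all genes had all repopulated libraries above all old ones. The fitted log2 fold changes lay between -0.42 for Il1b and 0.31 for Pycard. Against young cord 7 genes were higher in the repopulated group, and all 7 were also those higher in the old group, which shares the young libraries. Over all genes 10.1% of genes were called, 7.28% higher and 2.78% lower. Pycard had log2 1.498 (SE 0.17, adjusted p = 5.66e-07), Casp4 1.48 (SE 0.16, adjusted p = 2.4e-07) and Il1rn 1.93 (SE 0.27, adjusted p = 1.12e-05). For these 3 genes, Aim2 and Gsdmd all repopulated libraries lay above all young ones, as for 2.96% of genes. Repopulated replicate 6 held the highest Il18, Pycard and Casp1 of its group, at 36.9, 9.98 and 10.1 CPM. In TPM the same library had 33.9, 6.98 and 9.97, inside the range of the other 7. Without it the 7 genes stayed called, with Pycard at log2 1.30 and Casp4 at 1.39. The number of all genes lower in repopulated than in young cord went from 508 to 867 without that library.

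Microglial markers rose in cord as well. Their sum had a median of 281 CPM in young (255 to 341), 393 CPM in old (360 to 454) and 463 CPM in repopulated libraries (408.3 to 551), and 5 of the 10 markers were called higher in old cord. In whole tissue more cells of a type and more RNA per cell cannot be told apart. Per 1000 CPM of summed microglial markers, Pycard had all old libraries above all young ones. Its medians were 6.39 in young, 10.2 in old and 9.79 in repopulated cord. Casp4 did too, at 7.96, 11.8 and 12.5, but narrowly, with a highest young value of 8.97 and a lowest old value of 8.99. The share of all genes with groups apart on this scale was not computed. For Aim2 (21.9, 25.7 and 22.4), Casp1 (11.1, 13.9 and 13.1) and Gsdmd (16.9, 18.3 and 18.6) the ranges of old and young overlapped on this scale. Those of Il1rn (0.914, 2.69 and 2.505) and Il1a (1.46, 2.92 and 2.64) overlapped too. None of the 12 neutrophil markers was called in any cord comparison, and their sum had medians of 79.7, 149 and 86.4 CPM. Of the T and NK cell markers 3 could be tested in cord, and 2 of them, Cd8a and Cd4, were higher in old than in young (median of the 3 log2 1.29), with summed medians of 1.25, 2.82 and 3.02 CPM. Of 12 immediate early genes 4 were higher and 1 lower in old cord, with summed medians of 187, 215 and 223 CPM. The part of these genes and of the microglial markers in the cord results was not tested.

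**Figure D4:**
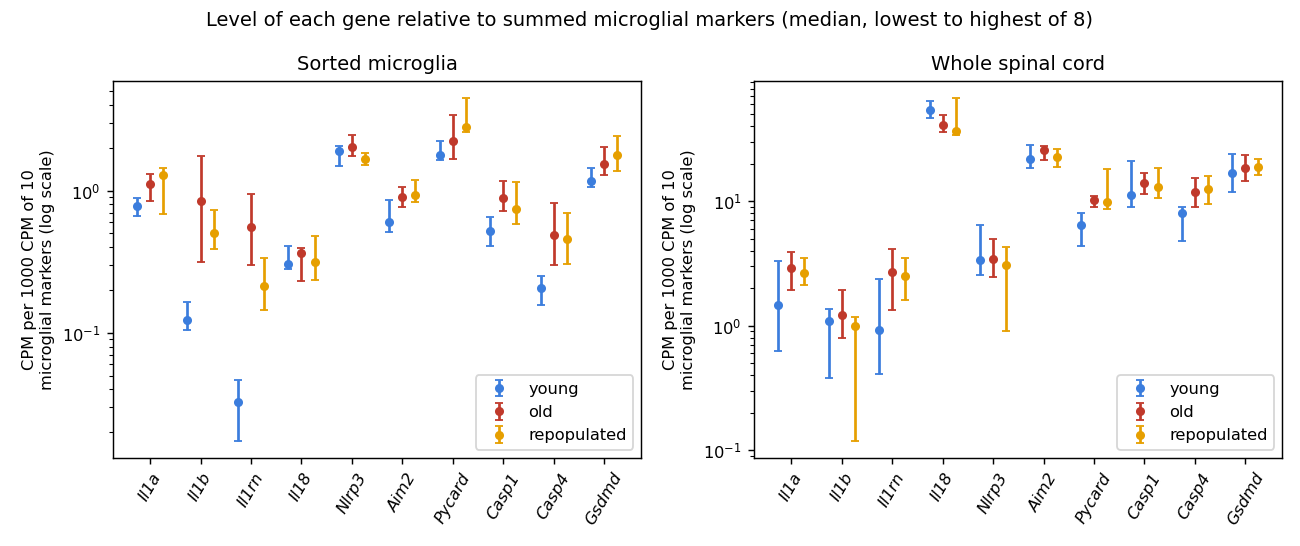
Level of each gene per 1000 CPM of 10 summed microglial markers (y axes, log scale; points, median of 8 libraries; bars, lowest to highest) in sorted microglia (left) and whole cord (right). In cord, Pycard and Casp4 have old and repopulated ranges above the young one, and Il18 stands highest, at a median of 53.7 in young cord.

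On this scale the genes also differed in how far cord exceeded sorted microglia. Il18 had a median of 53.7 per 1000 CPM of microglial markers in young cord and of 0.303 in young sorted microglia. Aim2 had 21.9 and 0.605, Gsdmd 16.9 and 1.17, Casp1 11.1 and 0.523 and Casp4 7.96 and 0.207. Nlrp3 was closest between the tissues, at 3.37 and 1.90, followed by Il1a, at 1.46 and 0.780. The 2 tissues were prepared differently, from dissociated brain and from frozen cord, and region and preparation cannot be told apart here.

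The test of the difference itself set the change in microglia against the change in cord over all 48 libraries. For old against young, 2 genes changed more upward in microglia and 6 more upward in cord, where 20.5% of 19110 genes were called, 5.44% higher and 15.0% lower, with a median over all genes of -0.15. This background moved with 1 library, the only single one left out of this fit, a choice made after the data had been seen. Without repopulated cord replicate 6 it was 1521 genes higher and 1719 lower, not 1040 and 2873, with a median of -0.01. The counts of the 10 genes stayed at 2 and 6. Under 8 other settings the number of all genes lower ran from 1276 to 3695. Il1rn differed by log2 1.71 (SE 0.37, adjusted p = 0.000711) and Il1b by 1.26 (SE 0.44, adjusted p = 0.0323), both toward microglia. Toward cord, Pycard differed by -1.47 (SE 0.20, adjusted p = 2.58e-07) and Il1a by -1.43 (SE 0.29, adjusted p = 0.000224). Nlrp3 (-0.90), Gsdmd (-0.88), Aim2 (-0.79) and Il18 (-0.62) were called in the same direction. Il18 was not called with DESeq2 size factors (adjusted p = 0.105), total-count scaling (0.0975), no filter (0.105) or DESeq2's Wald test (0.087), and Il1b was not called in limma-voom (0.158). In the edgeR fit Casp1 (adjusted p = 0.0643) and Casp4 (adjusted p = 0.104) were not called. Of the 6 genes toward cord, Nlrp3 and Il18 were not called between old and young cord itself (log2 0.40 and 0.13). In microglia they had log2 -0.32 and -0.33, of which only that of Nlrp3 was called.

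For repopulated against old, Il1rn alone of the 10 was called: it fell in microglia and was not called in cord (log2 0.13), with a difference of log2 -1.55 (SE 0.34, adjusted p = 0.00275). Over all genes 11.0% were called there, 3.49% higher and 7.54% lower, and without repopulated cord replicate 6 the 666 genes higher and 1441 lower became 1349 and 1320. For repopulated against young, all but Il1b and Il1rn were called toward cord, 8 of 10, beside 29.6% of all genes, 6.11% higher and 23.5% lower. Without that library the 1167 genes higher and 4486 lower became 2270 and 2623, and 7 of the 10 genes were called. The largest of these were Il1a (-1.43) and Pycard (-1.39). Casp4 (-0.88, adjusted p = 0.00348) was the gene lost, with an adjusted p of 0.0819. Nlrp3 and Il18 were among the 8, but were called lower in microglia and not called in cord (log2 0.32 and 0.33 in cord). For Il1rn the difference was 0.16 (SE 0.42, adjusted p = 0.864) and for Il1b 0.89 (SE 0.45, adjusted p = 0.13).

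**Figure D5:**
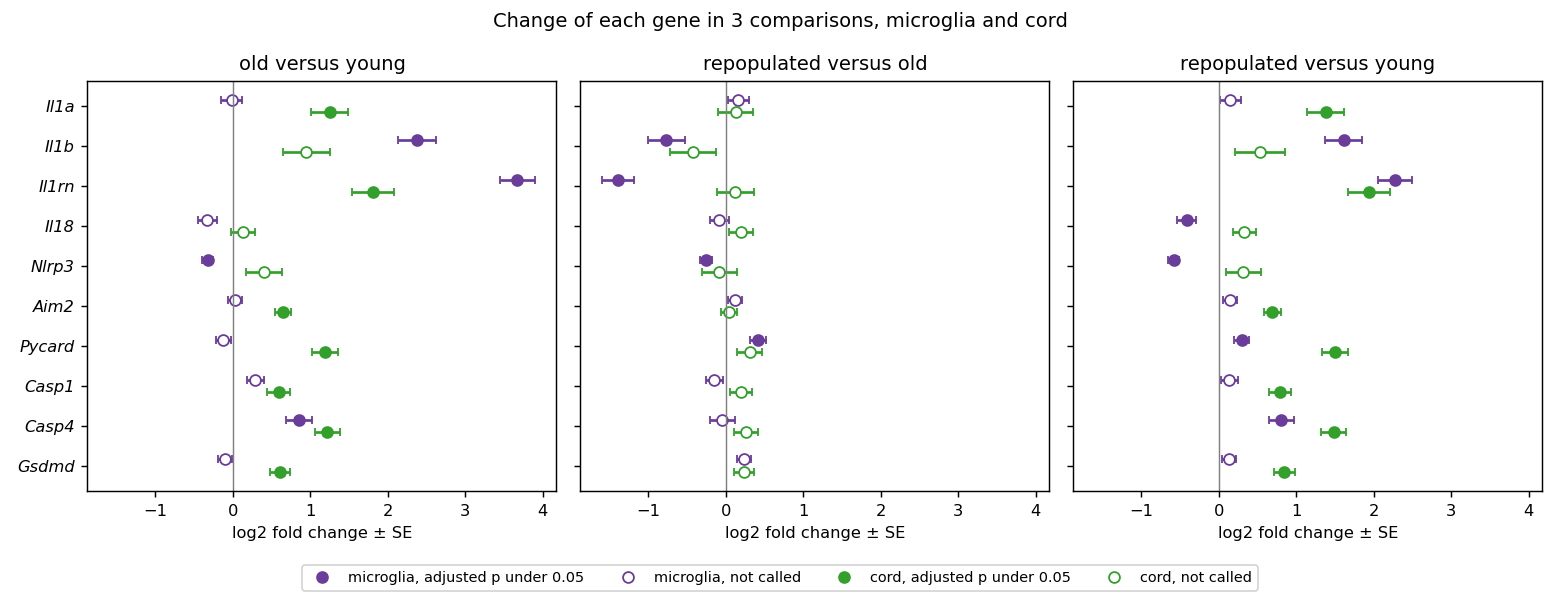
Log2 fold change ± SE of each gene (rows) in 3 comparisons (panels), for sorted microglia and whole cord (colours; filled points, adjusted p under 0.05). Il1b and Il1rn reach 2.38 and 3.67 in old microglia, while Pycard and Casp4 reach 1.19 and 1.22 in old cord, and no cord point is filled between repopulated and old.

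The other genes of the pathway were taken from a list of 67 symbols for related cytokines, receptors, signalling proteins, sensors, regulators, caspases and gasdermins, of which 61 are in the table and 51 were tested in each tissue. In old microglia 19 of the 51 were higher and 6 lower than in young, with a median log2 of 0.29, beside 11.0% and 10.7% of all genes and a median of -0.01. Of 9 receptors and decoys tested, 5 were higher and 0 lower. The receptor Il1r1 went from 1.67 ± 0.706 to 5.67 ± 2.22 CPM (log2 1.76, adjusted p = 2.74e-05) and the decoy receptor Il1r2 from 0.673 ± 0.455 to 4.77 ± 2.71 CPM, with overlap (log2 2.81, adjusted p = 0.000625). Il18bp, the secreted binding protein that neutralises interleukin-18, went from 2.14 ± 0.606 to 8.44 ± 3.12 CPM with no overlap (log2 1.98, adjusted p = 3.28e-07). Il18rap, a subunit of the interleukin-18 receptor, rose by log2 2.52 (adjusted p = 5.81e-08). Il1r2 was at 0 in 1 old library, and neutrophil markers rose in the same libraries, 11 of 12; their part in these receptor results was not tested.

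Of 12 other sensors tested, 6 were higher in old microglia and 0 lower. Ifi204, a DNA-binding member of the interferon-inducible gene family that also holds Aim2, went from 11.7 ± 3.35 to 48.9 ± 7.72 CPM (log2 2.07, adjusted p = 5.7e-12), and to 113 ± 26.6 CPM in repopulated microglia. It was thus higher again after repopulation (log2 1.21, adjusted p = 4.14e-07), where Il1b and Il1rn were lower. Members of this family and the Naip genes have near-identical copies, so their counts are uncertain. Il1f9, an interleukin-36 cytokine gene, went from 0.471 ± 0.394 to 5.58 ± 3.36 CPM with age and to 1.54 ± 0.865 CPM after repopulation (log2 -1.85, adjusted p = 0.0227). The summed neutrophil markers had medians of 531, 4910 and 1416 CPM in the same 3 groups. Their part in the Il1f9 result was not tested. Receptor signalling genes were split, 3 higher and 3 lower of 12: the adaptor Myd88 was lower by log2 -0.25 (adjusted p = 0.0111) and Nfkbiz, an NF-kB regulator, higher by 1.20 (adjusted p = 6.87e-05).

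Between repopulated and old microglia 4 of the 51 were higher and 11 lower, and 3 of the 12 signalling genes fell, beside 9.05% of all genes higher and 7.20% lower, so that the share higher was near that of all genes. Myd88 fell from 83.0 ± 7.70 to 64.4 ± 6.95 CPM (log2 -0.37, adjusted p = 0.000427) and the kinase Irak2 from 122 to 84.6 CPM (log2 -0.53, adjusted p = 1.31e-05). Ninj1, which ruptures the membrane after the gasdermin pore has formed, fell from 90.4 ± 11.99 to 53.6 ± 9.004 CPM (log2 -0.75, adjusted p = 6.21e-07). Txnip, a binding partner of Nlrp3, fell from 443.5 ± 23.2 to 318 ± 34.3 CPM with no overlap (log2 -0.48, adjusted p = 1.68e-06). Serpinb1a, an inhibitor of neutrophil proteases, fell by log2 1.22 after a rise of 2.82 with age. Neutrophil markers rose and fell in the same libraries, and their part in the Serpinb1a result was not tested. Trim30a, a regulator of Nlrp3, rose from 85.1 to 139 CPM (log2 0.71, adjusted p = 1.19e-07).

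In cord the list had 14 genes higher and 0 lower in old against young, 1 higher and 0 lower in repopulated against old, and 18 higher and 0 lower in repopulated against young. The shares of all genes were 4.88% and 1.26%, 0.148% and 0%, and 7.28% and 2.78%. Naip2 rose most clearly with age, from 1.52 to 4.602 CPM with no overlap (log2 1.60, adjusted p = 2.72e-07). Il33, an alarmin of the interleukin-1 family that cord expresses at high levels, went from 97.9 ± 18.9 to 137 ± 15.5 CPM (log2 0.48, adjusted p = 0.00266), whereas sorted microglia held 1.82 to 3.44 CPM on average. Il1r1 was higher too (log2 0.36, adjusted p = 0.0141). Trim30a was the 1 gene of the list called between repopulated and old cord (log2 0.72, adjusted p = 0.00973), in the same direction as in microglia.

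The 10 genes did not vary as a block across the 24 microglia libraries. In level, Il1b and Il1rn had the highest Pearson correlation of log2 CPM, 0.91, followed by Il1b and Casp4 with 0.79 and Pycard and Gsdmd with 0.75. After the group means were removed, Pycard and Gsdmd led with 0.65, and Il1b and Il1rn had 0.58. Nlrp3 ran against Casp4 (-0.70) and, within groups, against Pycard (-0.57), and Il1a and Il1b had correlations of only 0.06 in level and 0.10 within groups. Among 9272 genes compared, those most like Il1b in level were Plaur (0.92), Cxcr2 (0.91) and Fgr (0.91), and those most like Il1rn were Plaur (0.96), Fgr (0.95) and Lgals3 (0.94). Cxcr2, itself among the neutrophil markers listed above, was the closest to Il1b within groups too (0.77). Nlrp3 was most like Mertk (0.93), Rrp1b (0.93) and Idh2 (0.92). Pycard was most like Ap2s1 (0.90), Lst1 (0.89) and Atp6v1d (0.88), and Casp4 most like Tagln2 (0.89). These libraries share the groups, the sort and their depth, so the correlations describe these 24 libraries only.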

How the data were processed

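Polyadenylated RNA of sorted microglia and whole cord was sequenced with a kit that keeps no strand. The authors deposited raw counts per gene and TPM values. Per the submitters' processing notes, STAR 2.5.2b and GRCm38.p5 were used; the counting tool is not given in the sources used here. Counts were analysed in R 4.3.3 with edgeR 4.0.16 (filterByExpr with a minimum count of 10 and total of 15, TMM factors, quasi-likelihood test, Benjamini-Hochberg adjustment over all genes tested), fitted over the 24 libraries of a tissue, or over 48 for differences between tissues. The threshold was an adjusted p of 0.05, and the SE was taken from the F statistic. All 10 genes passed the filter in both tissues. Alternatives used DESeq2 1.42.0, limma 3.58.1 (voom, and log2 of TPM with a pseudocount of 1 or 0.1), other scalings and filters, and left-out libraries. No library was a repeat of another of its group: in 168 within-group pairs the chi-square per gene was 3.4 to 196, above the value of 1 that sampling alone gives. Pairs across groups were not compared. Pathway genes named were at most 4 per list at a mean of at least 1 CPM, by smallest adjusted p over the microglia comparisons, and for likeness the 3 genes of highest correlation per gene at a mean of at least 5 CPM. Genes, lists and tests were chosen with earlier results of these data known. The scripts were tested on simulated data. Not every gene of the marker lists is reported by name here.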

Additional observations from a re-analysis of the deposited data

Results flagged for a closer look

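Of 60 groups of 8 libraries tested with Dixon's criterion, 6 held a library far from the others, where chance gives about 3.0, or 1 in 20. Repopulated cord replicate 6 accounted for 3 of them, with Il18 at 36.9 CPM, Pycard at 9.98 CPM and Casp1 at 10.1 CPM, each the highest of its group, although its TPM values for these genes lay inside the range of the other libraries. In young microglia Il18 reached 22.9 CPM in replicate 3 and Pycard 143 CPM in replicate 7. In repopulated microglia Nlrp3 was lowest in replicate 5, at 60.6 CPM.

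The change in microglia differed from that in cord for 17 values tested with edgeR (adjusted p under 0.05; log2, microglia minus cord). For old against young these were Il1a -1.43, Il1b 1.26, Il1rn 1.71, Il18 -0.62, Nlrp3 -0.90, Aim2 -0.79, Pycard -1.47 and Gsdmd -0.88. For repopulated against old it was Il1rn, at -1.55. For repopulated against young they were Il1a -1.43, Il18 -0.94, Nlrp3 -1.10, Aim2 -0.74, Pycard -1.39, Casp1 -0.85, Casp4 -0.88 and Gsdmd -0.91. Without repopulated cord replicate 6 the last set had Il18 at -0.52 and Casp1 at -0.51, both still called, and Casp4 was not called. Tissue, region and preparation cannot be told apart in these differences.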

How the results depend on the processing

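Of 2327 log2 fold changes of the 10 genes recomputed under an alternative, 2267 kept their side of the threshold. Another 19 lost and 37 gained a call, and 4 reversed in sign with a call in at least 1 of the fits compared. Changes of sign between values called in neither fit are counted among the 2267, as for Il1a in old against young microglia (-0.09 to 0.04). The reversals were Pycard (-0.036 on both scales) and Gsdmd (-0.19 and -0.20) in repopulated against young microglia on log2(TPM + 1) and log2(TPM + 0.1). In old against young microglia the number of genes lower was 2, not 1, in limma-voom, on both TPM scales and in a fit of the compared groups alone. In repopulated against old microglia the number higher was 0 under total-count scaling and on both TPM scales, and the number lower was 1 in limma-voom and 5 on both TPM scales, where Casp1 and Il18 were also called. The tissue difference for old against young had 1 gene higher in limma-voom, and that for repopulated against old had 2 lower under total-count scaling. The causes were not tested. In cord the stricter filter left 5 genes higher because Il1a, Il1b, Il1rn and Nlrp3 were not tested.

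Leaving out each library in turn gave 1 to 2 genes lower and 3 to 4 higher in old against young microglia, 1 to 2 higher and 2 to 3 lower in repopulated against old, 3 to 4 higher and 2 lower in repopulated against young, and 7 to 8 higher in old against young cord. Gsdmd was called between repopulated and old microglia without repopulated replicate 4 or 8 or old replicate 4.

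Same-numbered samples deviated together (r over 0.1) in 2 of 24 pairs in microglia, 6 of 24 in cord and 0 of 24 across tissues. Samples with different numbers were not compared, so these counts cannot decide whether the numbers pair the samples. No pairing was used in the main fits. With the replicate block the number lower in old against young microglia was 2, Il18 being added (log2 -0.34, adjusted p = 0.0352), and no other count of the 10 genes changed.

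Scaling moved the share of all calls that were higher. In repopulated against old microglia the share went from 55.7% to 17.6% (total-count) and 10.4% (TPM). The median of all genes there moved from -0.04 to -0.21. In repopulated against young microglia the share went from 49.4% to 31.8% and 16.8%. In old against young microglia it went from 50.7% up to 60.9% with DESeq2 size factors and down to 40.7% on log2(TPM + 1). In old against young cord it went from 79.4% to 88.8% (TPM), and in repopulated against young cord from 72.4% to 84.6% (total-count). The tissue differences moved from 26.6% to 51.0%, from 31.6% to 14.8% and from 20.6% to 40.6%.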
